A study of Mus musculus with 12 samples.

Results

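The genes that hold the cell cycle back in G1 were examined in activated B cells depleted of CTCF, the zinc-finger protein that shapes chromatin loops, and in control cells. The set had 10 genes with this function, not every such gene of the table, and it was drawn up with earlier results of these data known: the cyclin-dependent kinase (CDK) inhibitors Cdkn1b, Cdkn2a, Cdkn2c and Cdkn2d, the retinoblastoma family Rb1, Rbl1 and Rbl2, and the antiproliferative genes Btg1, Btg2 and Tob1. All 10 were among the 12699 genes of the expression table, and all 10 passed the filter on low values in both cultures. Polyadenylated RNA had been sequenced from 12 libraries of sorted splenic B cells, 3 libraries for each of 4 groups. CTCFfl/fl; AID-CRETG/+ cells, with both Ctcf alleles floxed, were compared with CTCFfl/+; AID-CRETG/+ control cells, which carry 1 floxed allele and the same Cre transgene. Resting B cells from 8 to 12 week-old mice were kept for 48 h either with T cells activated by anti-CD3 (5 µg/ml) and anti-CD28 (1 µg/ml), called the CD3/CD28 cultures here, or with the bacterial product LPS (50 µg/ml) and IL4 (5 ng/ml), at the doses of the labels. Cre and the human CD2 (hCD2) reporter used for the sort are driven by the AID locus on a BAC transgene, so that deletion starts only after activation, in cells that express AID. Each library came from the pooled cells of 2 to 3 mice, and the cultures were processed as separate batches, so that batch and culture cannot be told apart. Values are normalized CPM, read counts scaled to a common library size, and a change is given as a log2 fold change of CTCFfl/fl over CTCFfl/+ on the scale of log2(CPM + 0.5) with its standard error (SE).

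A cell passes from G1 into S phase when cyclin D with CDK4 or CDK6, and then cyclin E with CDK2, phosphorylate the pocket proteins pRb, p107 and p130 and so release E2F transcription factors. The INK4 inhibitors (p16, p18 and p19Ink4d) bind CDK4 and CDK6 alone, p27 binds cyclin-CDK complexes, and p130 with E2F4 and the MuvB core forms the DREAM complex that silences cell cycle genes in resting cells. BTG and TOB proteins slow proliferation by recruiting the CCR4-NOT deadenylase to mRNAs. Germinal centre and activated B cells divide fast and stop dividing as they become plasma cells, in which p18 is a known requirement in the mouse.

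The promoters of 9 of the 10 genes were matched in RefSeq (GRCm38.p6), as 11 windows of the 250 bases before a transcription start. Each was searched on both strands for TTTNNCGC (an E2F motif, in 4.39% of the 27025 promoters of that length), TTTGAA (the CHR element read by DREAM, 16.3%), TGTTTAC (forkhead factors, 3.09%) and AGGNGGC (part of the CTCF core, 24.6%). The E2F motif was found in 3 windows, those of Rbl1 and both starts of Cdkn2a. The forkhead motif was found in Btg1 and the CHR letters in Rbl2, while part of the CTCF core was found in 4 windows, those of Cdkn1b, Btg1, Tob1 and the second start of Cdkn2a. The windows of Cdkn2c, Cdkn2d and Btg2 held none of these letters. Shown here are Rbl2 and Btg1, whose mRNA rose in the CD3/CD28 cultures, and Rbl1 and Cdkn2a, whose libraries lay on the other side, each 5′ to 3′ with every motif match in capitals.
Rbl2, chr8:91069807-91070056, plus strand: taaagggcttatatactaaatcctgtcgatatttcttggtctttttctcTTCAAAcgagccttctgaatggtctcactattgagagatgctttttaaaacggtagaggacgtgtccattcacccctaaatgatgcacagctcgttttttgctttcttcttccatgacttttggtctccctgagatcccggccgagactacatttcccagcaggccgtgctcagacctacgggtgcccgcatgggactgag
Btg1, chr10:96616751-96617000, plus strand: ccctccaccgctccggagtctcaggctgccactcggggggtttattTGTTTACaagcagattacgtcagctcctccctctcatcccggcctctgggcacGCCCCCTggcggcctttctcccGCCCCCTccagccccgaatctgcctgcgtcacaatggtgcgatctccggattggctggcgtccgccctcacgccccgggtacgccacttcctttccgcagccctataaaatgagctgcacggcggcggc
Rbl1, chr2:157204535-157204784, minus strand: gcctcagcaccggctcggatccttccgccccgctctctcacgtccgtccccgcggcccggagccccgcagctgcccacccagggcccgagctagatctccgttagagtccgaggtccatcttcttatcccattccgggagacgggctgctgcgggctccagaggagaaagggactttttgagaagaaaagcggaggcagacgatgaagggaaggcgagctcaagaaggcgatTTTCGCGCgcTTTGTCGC
Cdkn2a at the p19Arf start, chr4:89294620-89294869, minus strand: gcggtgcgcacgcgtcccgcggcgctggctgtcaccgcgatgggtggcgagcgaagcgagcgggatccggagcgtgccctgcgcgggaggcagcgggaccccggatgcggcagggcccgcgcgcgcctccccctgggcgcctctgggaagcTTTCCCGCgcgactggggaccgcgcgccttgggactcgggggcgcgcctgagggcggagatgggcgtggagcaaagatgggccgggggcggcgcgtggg
Cdkn2a at the p16Ink4a start, chr4:89282193-89282442, minus strand: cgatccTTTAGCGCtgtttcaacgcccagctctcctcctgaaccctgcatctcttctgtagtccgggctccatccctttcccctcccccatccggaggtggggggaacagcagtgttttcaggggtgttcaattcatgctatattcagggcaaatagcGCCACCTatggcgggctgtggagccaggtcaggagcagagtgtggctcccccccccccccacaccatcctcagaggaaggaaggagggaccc
In Rbl1 the pair of E2F matches ended at the transcription start, 2 bases apart, at 18 and 8 bases before it, and the single CHR match of Rbl2 began 201 bases before the start. A match is a run of letters and not a measured binding site.

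The targeted gene was examined first. Ctcf was at 138, 127 and 126 CPM in the CTCFfl/+ and 75.9, 76.3 and 72.0 CPM in the CTCFfl/fl libraries of the CD3/CD28 cultures, and at 134, 143 and 146 against 63.1, 69.4 and 78.3 CPM in the LPS/IL4 cultures. In both cultures the groups lay well apart, with log2 fold changes of -0.80 (SE 0.07; limma adjusted p = 0.00012) and -1.01 (SE 0.10; adjusted p = 0.00034). The second call was lost without the intensity trend of the test (adjusted p = 0.13) and was made in 16 of 17 alternatives. The difference between these reductions missed the threshold (0.21, 95% interval -0.03 to 0.45, adjusted p = 0.29). Ctcf mRNA thus remained in CTCFfl/fl cells, at 57.4% of control in the CD3/CD28 and 49.8% in the LPS/IL4 cultures. The controls also carry a floxed allele and Cre, so their own level may be lowered. A value per gene cannot separate intact from recombined transcripts, and mRNA does not give the CTCF protein that was left. The table corresponds to 6934344 to 11227004 reads per CD3/CD28 library and 23469188 to 28130440 per LPS/IL4 library. The mean level of a gene was almost the same in both cultures (within 0.1 on the log2 scale for 98.8% of 9905 genes whose mean reached 5 CPM), so levels are compared only within a culture.

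In CD3/CD28 T-stimulated B cells, 5 of the 10 brakes were higher in CTCFfl/fl than in control cells and none was called lower. They were Rbl2, Rb1, Cdkn2c, Cdkn2d and Btg1, from different families, with increases of 1.28- to 1.57-fold. The whole table gave 18.6% of 12070 genes called at an adjusted p under 0.05, and 9.88% called higher (8.76% lower). The median log2 fold change over the 10 genes was 0.35, against 0.01 over all genes tested. The CTCFfl/fl libraries were all above the control libraries for 7 of the 10 genes, where 20% of all genes did so, and the groups did not overlap in either direction for 9, against 39.6% of all genes. In bulk RNA, more cells with a high level and a higher level in each cell cannot be told apart. With 3 libraries against 3, the exact two-sided permutation test cannot give a p under 0.1, and it gave 0.1 for each of the 9 genes whose groups did not overlap.

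**Figure D1:**
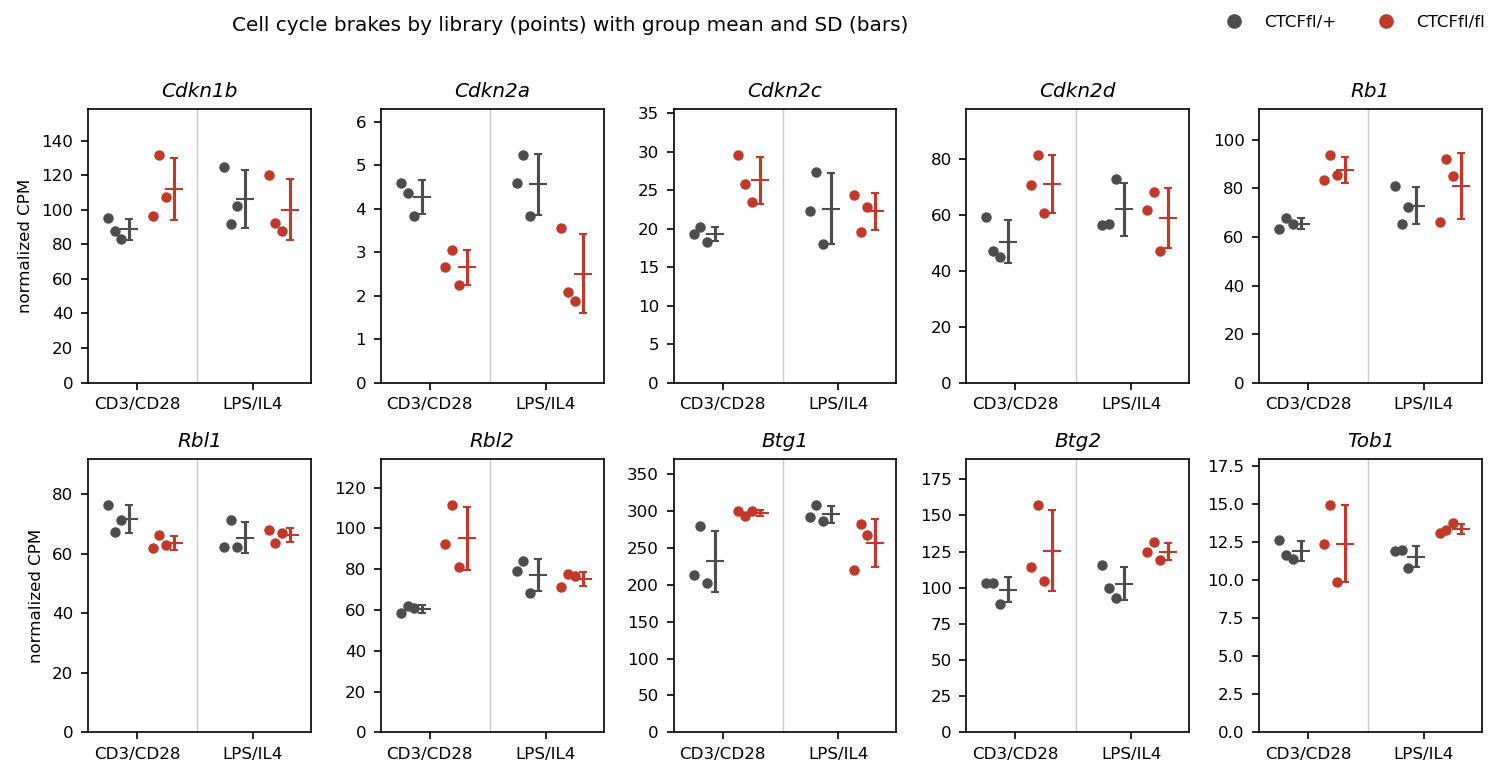
Normalized CPM of the 10 genes in each library, with a separate scale from 0 for each gene. Points are libraries of CTCFfl/+ (grey) and CTCFfl/fl (red) cells, and bars give the group mean and SD (n = 3). In the CD3/CD28 cultures the 3 CTCFfl/fl libraries lie above the controls for 7 genes and below them for Cdkn2a and Rbl1, and in the LPS/IL4 cultures the groups of 6 genes overlap.

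Of the pocket proteins, Rbl2, which encodes p130, the pocket protein of resting cells, changed most. It was at 58.6, 62.1 and 60.8 CPM in the control and at 92.4, 112 and 81.2 CPM in the CTCFfl/fl libraries of the CD3/CD28 cultures. The controls were tightly grouped, and the lowest CTCFfl/fl library was well above all of them. The means of 60.5 ± 1.79 and 95.04 ± 15.4 CPM (SD, n = 3) correspond to a log2 fold change of 0.64 (SE 0.10, 95% interval 0.41 to 0.87, limma adjusted p = 0.0031). Rbl2 in the LPS/IL4 cultures was at 79.0, 83.9 and 68.3 CPM in control and at 71.4, 77.9 and 76.8 CPM in CTCFfl/fl cells. These groups overlapped throughout (log2 fold change -0.03, interval -0.24 to 0.18, adjusted p = 0.99). Rbl2 extends over chr8:91070057-91123844 on the plus strand (GRCm38) and overlaps Aktip on the other strand. The libraries do not keep strand, so reads of the shared part cannot be told apart. The gene lies on the same chromosome as Ctcf, 14512724 bases away.

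Rb1 encodes pRb, the pocket protein that binds the activating E2F factors. It was at 63.5, 68.0 and 65.2 CPM in the control and at 83.7, 93.8 and 85.7 CPM in the CTCFfl/fl libraries of the CD3/CD28 cultures. Both groups were narrow and far apart, and the rise from 65.6 ± 2.30 to 87.7 ± 5.37 CPM was a log2 fold change of 0.42 (SE 0.07, adjusted p = 0.0042). With LPS/IL4 the control libraries were at 80.9, 65.5 and 72.2 CPM and the CTCFfl/fl libraries at 66.0, 92.2 and 85.3 CPM. The lowest CTCFfl/fl library lay within the controls and the other two above them, and the log2 fold change of 0.15 had an interval from -0.11 to 0.41 (adjusted p = 0.92). Rb1 lies at chr14:73183673-73325822 on the minus strand and overlaps Lpar6 and Rcbtb2.

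Rbl1, which encodes p107, a pocket protein that is itself made in cycling cells under E2F control, went the other way in the CD3/CD28 cultures. Its levels were 76.4, 67.1 and 71.4 CPM in control and 61.7, 66.1 and 62.8 CPM in CTCFfl/fl cells. The groups were apart, although their nearest libraries differed by only 1.01 CPM, and the log2 fold change of -0.17 (SE 0.07, interval -0.34 to -0.005) missed the threshold over all genes (adjusted p = 0.14). The groups overlapped in the LPS/IL4 cultures, at 62.4, 71.3 and 62.1 against 67.9, 63.7 and 67.0 CPM. The 2 E2F matches shown before the Rbl1 start were the only pair in the 11 windows.

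Values per kilobase of exon allow for the length of the genes. On this scale the order of the mean levels of the pocket proteins differed between the genotypes in the CD3/CD28 cultures. The order was the same for both genotypes in the LPS/IL4 cultures. In CTCFfl/+ cells of the CD3/CD28 cultures Rbl1 was at 11.9, Rb1 at 10.9 and Rbl2 at 8.00 CPM per kb on average. Rbl1 and Rb1 overlapped there, whereas Rbl2 was below both in every library. In CTCFfl/fl cells Rb1 was highest at 14.6, followed by Rbl2 at 12.6 and Rbl1 at 10.6 CPM per kb, with neighbouring genes overlapping. The ratio of Rbl2 to Rbl1 on this scale, a measure chosen after the values were seen, was 0.608, 0.734 and 0.676 in control and 1.19, 1.34 and 1.025 in CTCFfl/fl libraries. The p107 value thus exceeded that of p130 in each control library and not in any CTCFfl/fl library. Since the mean level of a gene was almost the same in both cultures, levels of different genes may not be comparable. Which transcript was more abundant, and the order of the pocket proteins, were therefore not shown. The ratio in the LPS/IL4 cultures was 0.936 ± 0.066 in control and 0.904 ± 0.068 in CTCFfl/fl cells (SD, n = 3), within the spread of the libraries (exact two-sided permutation p = 0.6).

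**Figure D2:**
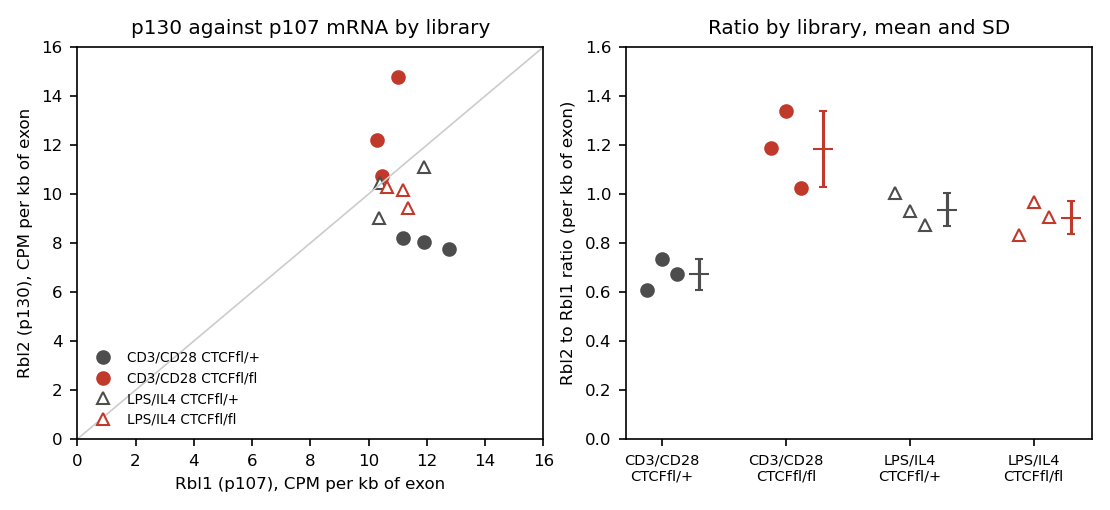
Left, Rbl2 (p130) against Rbl1 (p107) in CPM per kb of exon, where each point is 1 library and the line marks equal levels. Right, the ratio of Rbl2 to Rbl1 in each library with the group mean and SD (n = 3). The CD3/CD28 control libraries lie between 0.608 and 0.734 and the CTCFfl/fl libraries between 1.025 and 1.34, whereas both LPS/IL4 groups overlap.

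Among the INK4 inhibitors, Cdkn2c and Cdkn2d rose in CD3/CD28 T-stimulated B cells and Cdkn2a was lower. Cdkn2c encodes p18Ink4c (chr4:109660876-109667189, minus strand) and was at 19.4, 20.2 and 18.3 CPM in control and 29.6, 25.8 and 23.5 CPM in CTCFfl/fl libraries. All CTCFfl/fl libraries were above all controls, with a log2 fold change of 0.43 (SE 0.11, adjusted p = 0.022). Cdkn2d encodes p19Ink4d (chr9:21288410-21291407, minus strand) and was at 59.2, 47.1 and 45.0 CPM against 70.8, 81.5 and 60.8 CPM. The highest control library came within 1.61 CPM of the lowest CTCFfl/fl library, and the log2 fold change was 0.49 (SE 0.12, adjusted p = 0.022). Both calls were lost when single libraries were left out. For Cdkn2c, 3 of 6 such fits kept the call (adjusted p 0.015 to 0.087), and it was lost without control replicate 1, control replicate 3 or CTCFfl/fl replicate 1. For Cdkn2d, 3 of 6 kept it (0.011 to 0.091), and it was lost without control replicate 2, control replicate 3 or CTCFfl/fl replicate 2.

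Neither gene was called in the LPS/IL4 cultures. Cdkn2c was at 22.4, 27.4 and 18.1 CPM in control and 24.3, 19.6 and 22.9 CPM in CTCFfl/fl cells, and Cdkn2d at 56.4, 56.9 and 73.0 against 61.7, 68.1 and 47.0 CPM. The genotypes were interleaved for both genes, with log2 fold changes of -0.01 (interval -0.33 to 0.31) and -0.08 (-0.37 to 0.21).

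Cdkn2a was the one brake with lower values in all CTCFfl/fl libraries than in the controls of both cultures. The gene (chr4:89274471-89294653, minus strand) gives p16Ink4a and, from an upstream first exon in another reading frame, the MDM2 inhibitor p19Arf, and a value per gene cannot separate the products. Its level was 4.59, 4.37 and 3.83 CPM in control and 2.67, 3.04 and 2.24 CPM in CTCFfl/fl cells of the CD3/CD28 cultures. In the LPS/IL4 cultures it was 4.604, 5.24 and 3.84 CPM against 3.56, 2.09 and 1.88 CPM. The groups were apart in each culture, at a low level of expression, and with LPS/IL4 their nearest libraries differed by only 0.281 CPM. The log2 fold change was -0.60 (SE 0.21, interval -1.06 to -0.15, adjusted p = 0.066) in CD3/CD28 and -0.78 (SE 0.26, interval -1.33 to -0.23, adjusted p = 0.50) in LPS/IL4 cultures, and neither passed the test over all genes. Of 16 alternative fits, 2 called Cdkn2a lower in the CD3/CD28 cultures, that with quantile normalization (adjusted p = 0.032) and that without the intensity trend (adjusted p = 0.036). The difference between the cultures was 0.18 with an interval from -0.49 to 0.85. The neighbouring gene Cdkn2b, which encodes p15Ink4b, was below the filter in both cultures. It was given by 9, 12 and 9 reads in control and 3, 0 and 3 reads in CTCFfl/fl libraries of the CD3/CD28 cultures, and by 12, 27 and 10 against 14, 5 and 6 reads in the LPS/IL4 cultures. Cdkn2b belongs to the list of other CDK inhibitors and was singled out after its reads were seen. In the fit without the filter it was called lower in the CD3/CD28 cultures, at these few reads.

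Cdkn1b encodes p27Kip1, the inhibitor of cyclin E-CDK2 in resting lymphocytes (chr6:134920401-134925513, plus strand). In the CD3/CD28 cultures it was at 95.05, 88.0 and 82.9 CPM in control and 96.5, 131.8 and 107.5 CPM in CTCFfl/fl cells. The groups were apart, but the lowest CTCFfl/fl library was only 1.43 CPM above the highest control. The log2 fold change of 0.32 (SE 0.11, interval 0.09 to 0.56) just missed the threshold (adjusted p = 0.056). The call was made in 4 of 17 alternative fits, with adjusted p from 0.022 to 0.19 over them, and without CTCFfl/fl replicate 2 the log2 fold change was 0.20. Cdkn1b in the LPS/IL4 cultures was at 124.5, 91.5 and 102.1 CPM against 120.2, 92.4 and 87.8 CPM, with overlapping groups (log2 fold change -0.08, interval -0.36 to 0.19).

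Of the antiproliferative genes, Btg1 rose in the CD3/CD28 cultures, and Btg2 and Tob1 did not pass the test. Btg1 (chr10:96617006-96622809, plus strand), a gene of resting lymphocytes and a frequent target of mutation in human B-cell lymphoma, was at 214, 279 and 202 CPM in control and 299.6, 293 and 300.4 CPM in CTCFfl/fl libraries. The CTCFfl/fl libraries were almost equal, and control replicate 2 was much closer to them than the other controls. The log2 fold change was 0.38 (SE 0.10, adjusted p = 0.030). Only 1 of the 6 fits with a library left out kept this call, the one without control replicate 2 (adjusted p 0.0035), and the other 5 gave 0.051 to 0.12. The order was the opposite in the LPS/IL4 cultures, at 292, 308 and 286 CPM in control and 220.3, 282 and 267 CPM in CTCFfl/fl cells. The groups did not overlap, but the log2 fold change of -0.21 (SE 0.10, interval -0.42 to -0.001) was far from the threshold over all genes (adjusted p = 0.74).

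Btg2 (chr1:134075170-134079120, minus strand) is a p53 target and an early response gene. It was at 103.5, 103.4 and 88.8 CPM in control and 114, 157 and 105 CPM in CTCFfl/fl cells of the CD3/CD28 cultures, and at 115, 99.7 and 93.0 against 125, 131 and 119 CPM in the LPS/IL4 cultures. Every CTCFfl/fl library was above its controls in both cultures. The log2 fold changes were 0.33 (SE 0.13, adjusted p = 0.11) and 0.29 (SE 0.10, adjusted p = 0.51), their difference was 0.04 (interval -0.34 to 0.42), and neither was called. Without CTCFfl/fl replicate 2, the library at 157 CPM, the first was 0.15, and 3 of 17 alternatives called it, those with the replicate block (adjusted p = 0.049), with DESeq2 (0.043) and without CTCFfl/fl replicate 3 (0.040).

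Tob1 (chr11:94211454-94215495, plus strand), a brake of T-cell activation, was at 12.6, 11.7 and 11.4 CPM in control and 12.4, 14.96 and 9.91 CPM in CTCFfl/fl cells of the CD3/CD28 cultures. These groups overlapped fully, with the CTCFfl/fl libraries spread over both sides of the controls (log2 fold change 0.04, interval -0.30 to 0.38). In the LPS/IL4 cultures it was at 11.9, 12.0 and 10.8 against 13.1, 13.3 and 13.7 CPM. There the groups were apart, but the log2 fold change of 0.20 had an interval from -0.09 to 0.50 (adjusted p = 0.89).

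In the LPS/IL4 cultures 0 of the 10 brakes were called by limma (2 of them higher without overlap, Btg2 and Tob1, and 2 lower, Cdkn2a and Btg1). The call rate of the whole table was 0.0334% there, 4 of 11962 genes, with 796 genes at an unadjusted p under 0.05. Of the members, Cdkn2a, Btg1 and Btg2 had an unadjusted p under 0.05, and 0 were called by edgeR or DESeq2 on the recovered reads. Groups that did not overlap were found for 11% of all genes and groups with CTCFfl/fl higher for 5.62%. The median log2 fold change over the 10 genes was -0.02.

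The dependence of these effects on the culture was tested directly by an interaction term over all 12 libraries. It was called for 2 of the 10 genes, Rbl2 and Btg1, both with a more positive effect in CD3/CD28 cultures. The whole table gave 7.57% of 11847 genes called and 3.88% called in that direction. For Rbl2 the effects differed by 0.66 on the log2 scale (SE 0.15, interval 0.35 to 0.98, adjusted p = 0.017) and for Btg1 by 0.59 (SE 0.15, interval 0.26 to 0.91, adjusted p = 0.033). The Btg1 difference kept its call in 3 of 12 fits with a library left out and in 11 of 22 alternatives in all. Cdkn2d came next with a difference of 0.57 (interval 0.12 to 1.03, adjusted p = 0.12), and Cdkn2c, Cdkn1b and Rb1 had differences of 0.44, 0.41 and 0.27 (adjusted p 0.20 to 0.33). The other 4 differences lay between -0.19 and 0.18. For Rb1, Cdkn2c and Cdkn2d, an effect particular to the CD3/CD28 cultures was therefore not shown.

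**Figure D3:**
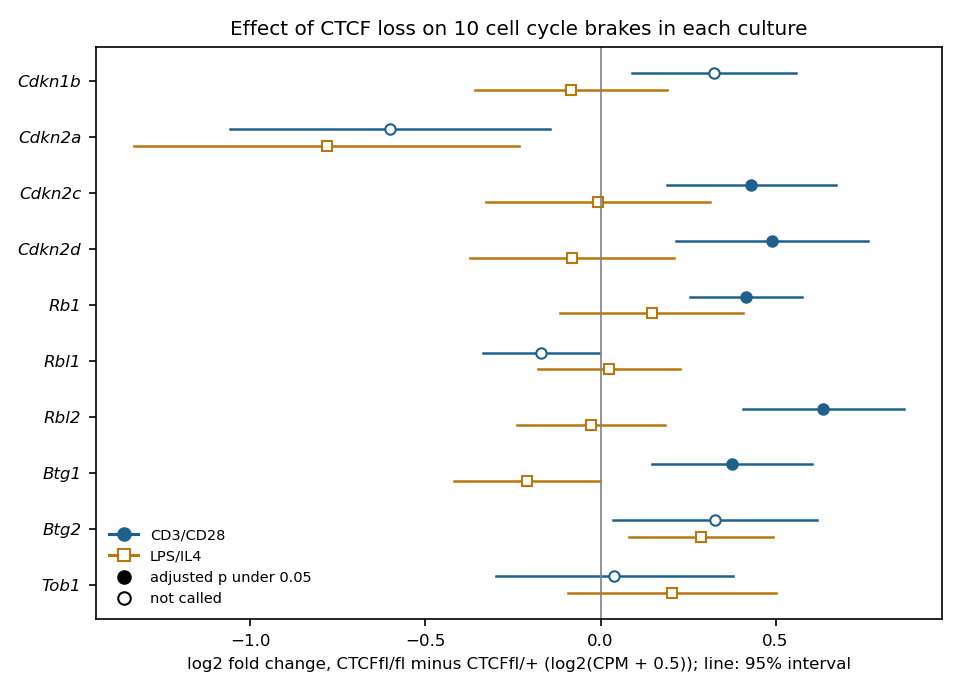
Log2 fold change of CTCFfl/fl over CTCFfl/+ for each gene on the scale of log2(CPM + 0.5), in CD3/CD28 (blue circles) and LPS/IL4 cultures (orange squares), with 95% intervals from limma. Filled symbols mark an adjusted p under 0.05, which 5 genes reach in the CD3/CD28 cultures and 0 in the LPS/IL4 cultures. Cdkn2a lies left of 0 in both.

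Some libraries were the highest or lowest of their group for many of the 10 genes, which was neither tested nor compared with all genes. CTCFfl/fl replicate 2 of the CD3/CD28 cultures was the highest of its group for 8 of the 10 genes, Cdkn2c and Btg1 being the exceptions. CTCFfl/fl replicate 3 was the lowest for 6, and control replicate 3 was the lowest of its group for 7. Leaving out CTCFfl/fl replicate 2 left 3 brakes called higher, and leaving out control replicate 3 left 2. Without the intensity trend of the test, Cdkn2c, Cdkn2d and Btg1 were not called (adjusted p = 0.053, 0.089 and 0.11), so that of the 5 only Rb1 and Rbl2 were. Rb1 and Rbl2 were called in every one of the 17 alternative fits, with adjusted p up to 0.032 and 0.036.

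Markers of cell types were examined in the same libraries. In the CD3/CD28 cultures, 5 of 9 B-cell markers rose, among them Cd79a (log2 fold change 0.35) and Blnk (0.31), and 2 of 6 plasma cell markers, Prdm1 (1.28) and Sdc1 (0.81), beside 9.88% of all genes. With a library left out, 1 to 5 of the B-cell markers were called higher (1 without control replicate 3, 2 without control replicate 1), and 0 were without the intensity trend. Over the same fits, 2 to 3 plasma cell markers were called higher and 0 to 2 lower, with 2 lower without CTCFfl/fl replicate 2. Of the plasma cell markers not called, Jchain (0.67) and Mzb1 (0.20) had positive log2 fold changes. Xbp1 (-0.22) and Irf4 (-0.21) had negative ones, with limma adjusted p of 0.089 and 0.088. Of the 14 T-cell markers the 9 that passed the filter included Cd2 (0.84) and Cd3g (1.11), which rose, and Thy1 (-1.30 as a log2 fold change), which fell. The summed level of the 14 was 194 to 212 CPM in control and 232 to 266 CPM in CTCFfl/fl libraries. Cd3d, Cd3e, Cd4 and Trac stayed at or below 0.8003 CPM in every CD3/CD28 library. Within the LPS/IL4 cultures their highest value was 3.05 CPM, for Cd3e in CTCFfl/fl replicate 1 (72 reads), with 1 read in each other library. Cd3d likewise had 63 reads in control replicate 2 and 1 read in each other LPS/IL4 library. Since the culture means of most genes were almost equal, the recovered reads may not be those first counted. The amount of T-cell RNA in a culture was therefore not shown. With a library left out, 1 to 3 T-cell markers were called higher (1 in each fit that left out a control library, CTCFfl/fl replicate 1 or CTCFfl/fl replicate 2), and 1 lower. Itgam (1.81) and Tyrobp (1.57) were the 2 of 4 tested myeloid markers that rose. Fcer1g (0.44) and Cd68 (0.42) were not called (limma adjusted p = 0.47 and 0.10). The list held 10 myeloid markers, and 5 of them, Lyz2, Csf1r, S100a8, S100a9 and Mpo, were not in the expression table. The 5 myeloid markers measured summed to 12.8 to 23.7 CPM in control and 34.1 to 41.6 CPM in CTCFfl/fl libraries, and 0 of them were at 0 in all libraries of a group. The part of these cells or states in the higher level of the brakes was not tested.

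The partners of the brakes were read from lists of the pathway. The list of G1 cyclins and CDKs also held activators of CDKs, a phosphatase and subunits of the CDK-activating kinase. Of its genes, 12 were tested in the CD3/CD28 cultures, and 5 fell and 1 rose, with a median of -0.16. Over all genes, 8.76% were called lower and 9.88% higher. Cdk6, the partner of the D cyclins and target of the INK4 inhibitors, fell by 0.54 on the log2 scale (SE 0.12, adjusted p = 0.011) from 20.3 ± 0.416 to 13.9 ± 1.65 CPM. Ccnd2, the main D cyclin of B cells, fell by 0.33 (adjusted p = 0.011) from 1046 to 834 CPM. The phosphatase gene Cdc25a, which activates CDK2, fell by 0.45 (adjusted p = 0.022), and the other genes called lower, named here because they were called, were Ccne2 (-0.50) and Ccnd3 (-0.20). Mnat1, a subunit of the CDK-activating kinase, rose by 0.39 (adjusted p = 0.032). Over the 6 fits with a library left out, 1 to 4 genes of the list were called lower (3, 2 and 1 without control replicates 1, 2 and 3, and 3 without CTCFfl/fl replicate 2). No gene of the list was called higher in 4 of these fits, those without control replicate 2, control replicate 3, CTCFfl/fl replicate 1 or CTCFfl/fl replicate 2, nor with DESeq2 or without the intensity trend.

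The genes of E2F and DP factors were divided, with 1 of 10 called higher and 3 lower, beside 9.88% and 8.76% of all genes. E2f2 rose from 132 ± 3.82 to 175 ± 3.39 CPM (log2 fold change 0.40, adjusted p = 0.0019). Tfdp1, a DP partner of the E2F factors, fell by 0.29 (adjusted p = 0.024). Tfdp2, the other DP gene of the list, had a log2 fold change of 0.31 and was not called (adjusted p = 0.057). E2f4, the partner of p130 in DREAM, fell by 0.23 (adjusted p = 0.040), and E2f3 fell by 0.29 (adjusted p = 0.048). With a library left out, 0 to 4 of the 10 genes were called lower and 1 was called higher in each fit, with 0 lower without control replicate 1 or control replicate 3 and 1 lower without control replicate 2, CTCFfl/fl replicate 1 or CTCFfl/fl replicate 2. Of the 8 MuvB and DREAM partners, 0 were called by limma, with a median of -0.11 and 3 of them, Mybl2, Lin37 and Lin54, at an adjusted p under 0.1. Of 18 E2F target genes of DNA replication, 2 fell, Tyms by 0.46 (adjusted p = 0.013) and Ccne2 by 0.50 (adjusted p = 0.033), and 16 were not called, with a median of -0.13 over the list. These 2 of 18 are near the 8.76% of all genes called lower. With a library left out, 0 to 3 of the targets were called lower, 0 without control replicate 1 or control replicate 3, 3 without CTCFfl/fl replicate 3 and 1 in the other fits.

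Genes of quiescence and of the turnover of p27 were read in the same way. Of 10 genes tested among the quiescence factors, 4 rose and 0 fell, beside 9.88% of all genes called higher and 8.76% lower. Pik3ip1, an inhibitor of PI3 kinase, rose by 1.11 (SE 0.14, adjusted p = 0.00083) from 24.2 ± 1.601 to 53.6 ± 11.6 CPM, and Tsc22d3, which encodes the glucocorticoid-induced leucine zipper, rose by 0.82 (adjusted p = 0.0087). The forkhead genes Foxp1 and Foxo4 rose by 0.41 and 0.34 (adjusted p = 0.035 and 0.034), and the list's median was 0.25. From 2 to 4 genes of the list were called higher with a library left out, 2 without control replicate 1 or control replicate 3. In the same fits 0 to 1 were called lower, 1 without CTCFfl/fl replicate 3. In the list of p27 turnover and the APC/C brake, Fbxo5, the inhibitor of the APC/C ubiquitin ligase, fell by 0.41 (adjusted p = 0.017) and Rnf123, a ubiquitin ligase for p27 in G1, rose by 0.21 (adjusted p = 0.0496), while Skp2, the S-phase ligase subunit for p27, had a log2 fold change of -0.38 (adjusted p = 0.079). With 1 of its 10 genes called higher and 1 lower, that list was near the shares of all genes. No gene of that list was called higher in any of the 6 fits with a library left out, and none was called lower without control replicate 1.

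The remaining lists were read beside the 8.76% of all genes called lower and the 9.88% called higher. Of the 9 genes of the p53 and ARF axis, 2 fell and 0 rose. Bmi1, the Polycomb repressor of Cdkn2a, fell by 0.40 (adjusted p = 0.010) and Npm1, a nucleolar partner of p19Arf, fell by 0.26 (adjusted p = 0.024). Of the 12 CCR4-NOT subunits, 1 rose and 1 fell, near the shares of all genes. Tnks1bp1 rose by 0.35 (adjusted p = 0.019) and Cnot6 fell by 0.25 (adjusted p = 0.048). With a library left out, 1 to 3 genes of the first list were called lower (1 without control replicate 1, control replicate 3 or CTCFfl/fl replicate 2). Of the CCR4-NOT subunits, 0 to 1 were called higher, 0 without control replicate 1 or control replicate 3, and 0 to 2 lower, with 0 in each fit but those without CTCFfl/fl replicate 2 or CTCFfl/fl replicate 3. The other CDK inhibitors tested were not called, Cdkn1a (p21) with a log2 fold change of 0.18 (adjusted p = 0.32) and Cdkn3 with 0.35 (adjusted p = 0.087). Nor were the relatives Btg3 and Tob2, at -0.55 (adjusted p = 0.41) and -0.13 (adjusted p = 0.20). In the LPS/IL4 cultures 0 genes of all these lists were called by limma.

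**Figure D4:**
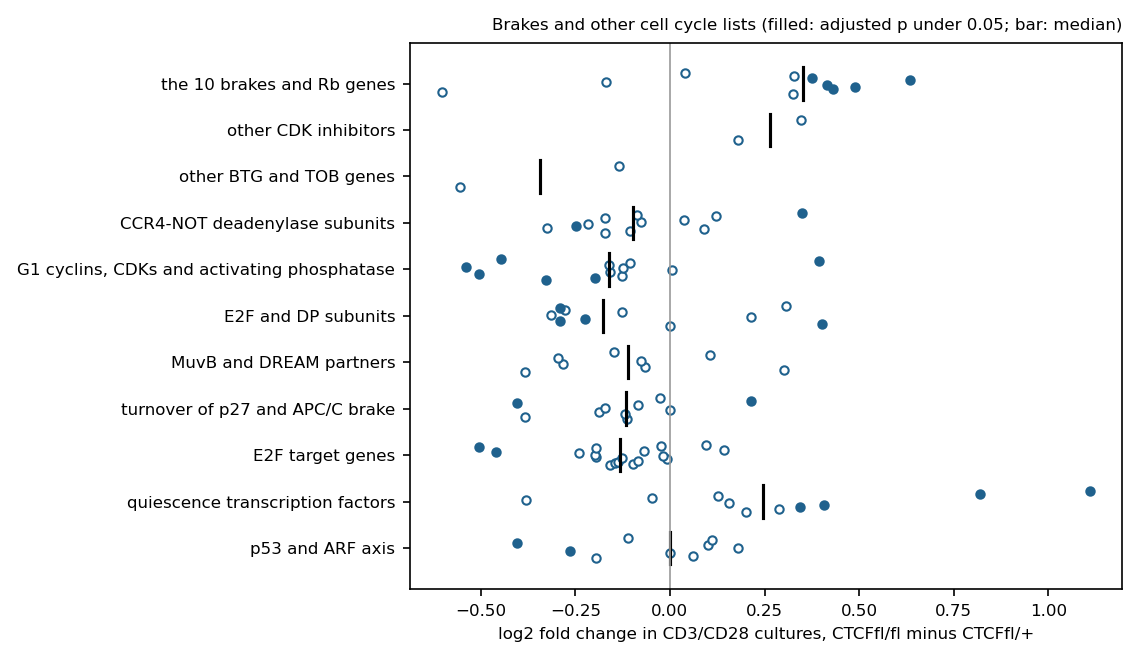
Log2 fold change of CTCFfl/fl over CTCFfl/+ in the CD3/CD28 cultures for the 10 brakes and for the genes tested from each pathway list. Each point is 1 gene, filled at an adjusted p under 0.05, and the black bar is the list's median. The brakes (median 0.35) and the quiescence factors (0.25) lie mostly right of 0, and the G1 cyclins and kinases (-0.16) and the E2F factors (-0.18) mostly left of it.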

How the data were processed

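Polyadenylated RNA of 12 libraries (TruSeq v2, unstranded) was read as single ends. The authors demultiplexed with CASAVA 1.8, trimmed with Cutadapt, quantified with RSEM 1.17 against GRCm38 and normalized with edgeR, and deposited normalized CPM for 12699 genes, of which 12586 were named from GENCODE M21. Within a library every value was a whole multiple of one smallest unit, to within 0.01 read, so that 100% of values gave whole reads. Since the culture means are almost equal, the recovered reads may not be the reads first counted. The deposited CPM were tested as log2(CPM + 0.5) with limma 3.58.1 (R 4.3.3, intensity trend), each culture alone, keeping genes that reached 1 CPM in 3 or more of the 6 libraries, with Benjamini-Hochberg adjustment over all genes and a threshold of 0.05. An interaction over 12 libraries compared the cultures. On the recovered reads edgeR 4.0.16 called 2240 genes with CD3/CD28 and 4 with LPS/IL4, and DESeq2 1.42.0 called 1927 and 37, both alternatives chosen after seeing the data. Fits were tested on simulated data.

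The members and lists were chosen with earlier results of these data known. All 10 members are named, and from each list up to 4 genes with the smallest adjusted p. Ccnd3, Cdkn2b, Cd3d, Cd3e, Cd4, Trac, Tfdp2, Xbp1 and Irf4, and Ccne2 among the cyclins, are named beyond this rule, chosen after their values were seen. The myeloid markers absent from the expression table are named too. The Skp1 gene was read as Skp1a, its symbol in the annotation. Replicates are separate pools of mice only as far as the labels number them, so p-values measure the spread between these samples, which may be technical. Precision at this depth is lowest for weakly expressed genes such as Cdkn2a. Alternatives were other pseudocounts (0.1 and 1), normalizations and filters, no trend, a replicate block, 1 fit of all libraries and leaving out each library.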

Additional observations from a re-analysis of the deposited data

Results flagged for a closer look

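The effect of CTCF loss on 2 of the brakes differed between the cultures by the interaction test. For Rbl2 it was 0.66 more positive on the log2 scale with CD3/CD28 T cells than with LPS/IL4 (SE 0.15, limma adjusted p = 0.017), with the CTCFfl/fl libraries higher than all controls in 3 of 3 CD3/CD28 libraries, and the adjusted p ranged from 0.00091 to 0.053 over 22 alternatives. For Btg1 it was 0.59 more positive (SE 0.15, adjusted p = 0.033), with all CTCFfl/fl libraries above the controls in CD3/CD28 and all below them in LPS/IL4 cultures, and the adjusted p ranged from 0.0076 to 0.092 over 22 alternatives. Batch and culture cannot be told apart in this difference.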

How the results depend on the processing

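Depth and the 3 libraries of a group limit these results. In the CD3/CD28 cultures 5 brakes were called, 3 without the intensity trend (Rb1 and Rbl2 higher and Cdkn2a lower) and 2 to 5 with a library left out. All genes called there (2250) became 1092 without the trend and 1005 to 2321 with a library left out. In the LPS/IL4 cultures no alternative called a brake, and the 4 genes called became 7 with a pseudocount of 1, 2 with quantile normalization, 2 without the filter, 1 without the trend, 37 with DESeq2 and 2 to 75 with a library left out. For the difference between cultures, 2 brakes were called, 0 without the trend, 1 with edgeR and 1 to 2 with a library left out, and the 897 genes called became 388 without the trend and 405 to 989 with a library left out. Libraries with the same replicate number had correlations of -0.13 to 0.05 in CD3/CD28 and -0.12 to 0.39 in LPS/IL4 cultures. Libraries with different numbers had -0.11 to 0.11 and -0.35 to 0.29. Pairing by replicate number was thus not shown, although in LPS/IL4 cultures the highest value was that of replicate 1 with replicate 1. With a replicate block 6 brakes and 1870 genes were called in CD3/CD28 cultures, 0 and 18 in LPS/IL4 cultures, and 2 and 604 for the difference. Quantile normalization called 7 brakes in CD3/CD28 cultures, 6 higher and Cdkn2a lower (adjusted p = 0.032), and DESeq2 called 7 higher. Only small effects changed sign, none of them called. With quantile normalization Tob1 in CD3/CD28 cultures was at -0.028. With a library left out, Tob1 ran from -0.10 to 0.19 there, and in LPS/IL4 cultures Cdkn1b ran from -0.22 to 0.036, Cdkn2c from -0.15 to 0.14, Cdkn2d from -0.19 to 0.072, Rbl1 from -0.011 to 0.088 and Rbl2 from -0.11 to 0.036. The difference between cultures for Btg2 ran from -0.13 to 0.16.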
